A study of Mus musculus with 2 samples.

Results

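The nuclear subunit genes of respiratory complex I were followed in long-read RNA sequencing of mouse gastrocnemius, a calf muscle. Members were the annotated protein-coding genes whose symbol is Nduf followed by a, ab, b, c, s or v and a number. This gave 37 genes of the 14704 annotated genes with a read, and all 37 were read in both libraries. The study holds 1 group of 2 libraries, numbered biological replicates 2 and 1, from males of the strain B6CASTF1/J, an F1 cross, aged 14 days, made from 2 µg of total RNA each. The biosample labels speak of several males per sample, and both libraries carry the same donor identifier, so nothing shows that they came from separate animals. P-values below therefore compare these libraries and not conditions. No treatment or mutant is part of the design.

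Complex I, NADH:ubiquinone oxidoreductase, is the entry point of electrons into the mitochondrial respiratory chain. It takes electrons from NADH, passes them along a row of iron-sulfur clusters to ubiquinone, and pumps protons across the inner membrane. Its matrix arm and membrane arm hold conserved core subunits, some of which are encoded by mitochondrial DNA, and a larger number of accessory subunits that stabilise and assemble the complex. Muscle fibres depend on it for oxidative ATP production. Ndufa4 keeps its complex I symbol but is today counted as a subunit of complex IV, and it is shown apart from the others.

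The libraries held 626289 reads in replicate 2 and 1094607 reads in replicate 1 after ERCC spike-in RNAs were set aside. Levels are counts per 1000000 of these reads (CPM). Each read stands for 1 cDNA molecule, so levels were not divided by transcript length. A count of 0 allows up to 4.79 CPM in replicate 2 and 2.74 CPM in replicate 1, for counting error only. The tissue label was checked on fast-fibre markers: Acta1, Ckm, Myh4, Atp2a1 and Mylpf were all read and summed to 244641 CPM in replicate 2 and 278481 CPM in replicate 1. They did not move together: in the gene test described below Ckm and Mylpf passed as higher in replicate 2, and Acta1, Myh4 and Atp2a1 as lower. Of the brown fat markers, Ucp1 and Elovl3 had no read in either library and Cidea stood at 7.98 CPM in replicate 2 and 5.48 CPM in replicate 1. The heart markers Myh6, Nppa and Tnni3 summed to 3.19 CPM in replicate 2 and 2.74 CPM in replicate 1. The fibroblast markers Col1a1, Col3a1 and Dcn, 3 of 3 read, summed to 2711 CPM in replicate 2 and 6894 CPM in replicate 1, and all 3 passed the gene test described below as lower in replicate 2. The endothelial markers Pecam1, Cdh5 and Cldn5, 3 of 3 read, summed to 136 CPM in replicate 2 and 259 CPM in replicate 1, and Cldn5 passed as lower in replicate 2. The red cell markers Hba-a1, Hbb-bs and Alas2, 3 of 3 read, summed to 1138 CPM in replicate 2 and 621 CPM in replicate 1. Both globin genes passed as higher in replicate 2. Alas2 went the other way, with 3 reads in replicate 2 and 19 reads in replicate 1. It did not pass (Fisher's exact test, adjusted p = 0.14). These 3 marker lists also differ in median transcript length, with 5527 bases for the fibroblast, 3332 for the endothelial and 696 for the red cell markers. Ratios between the libraries ran with transcript length, as described below, and how much of the marker differences goes with length was not tested. The part of the marker differences in the results below was not tested. In bulk tissue fewer cells of a type and less RNA per cell cannot be told apart.

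The 37 genes together took 2.87% of the reads of replicate 2 (17974 reads) and 1.62% of those of replicate 1 (17737 reads), which is 2.25% ± 0.88 (SD, n = 2). Every member lay among the more abundant genes of the muscle: the lowest ranked 490th of 12149 detected genes in replicate 2 and 930th of 13715 in replicate 1. The median member had 637 CPM in replicate 2 and 407 CPM in replicate 1, against medians over all detected genes of 9.58 CPM in replicate 2 and 8.22 CPM in replicate 1. Levels stayed within a narrow band. Leaving Ndufa4 aside, the highest member was 8.2 times the lowest in replicate 2 and 7.0 times in replicate 1. Spearman's rho of the members' levels between the libraries was 0.76 across the 37 genes, which are not independent replicates. In the order of mean levels, 35 of 36 neighbouring pairs had overlapping ranges, the exception being Ndufa9 and Ndufc2, so the order of neighbours is not settled. Of the 10 highest members in each library, 6 were shared.

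**Figure D1:**
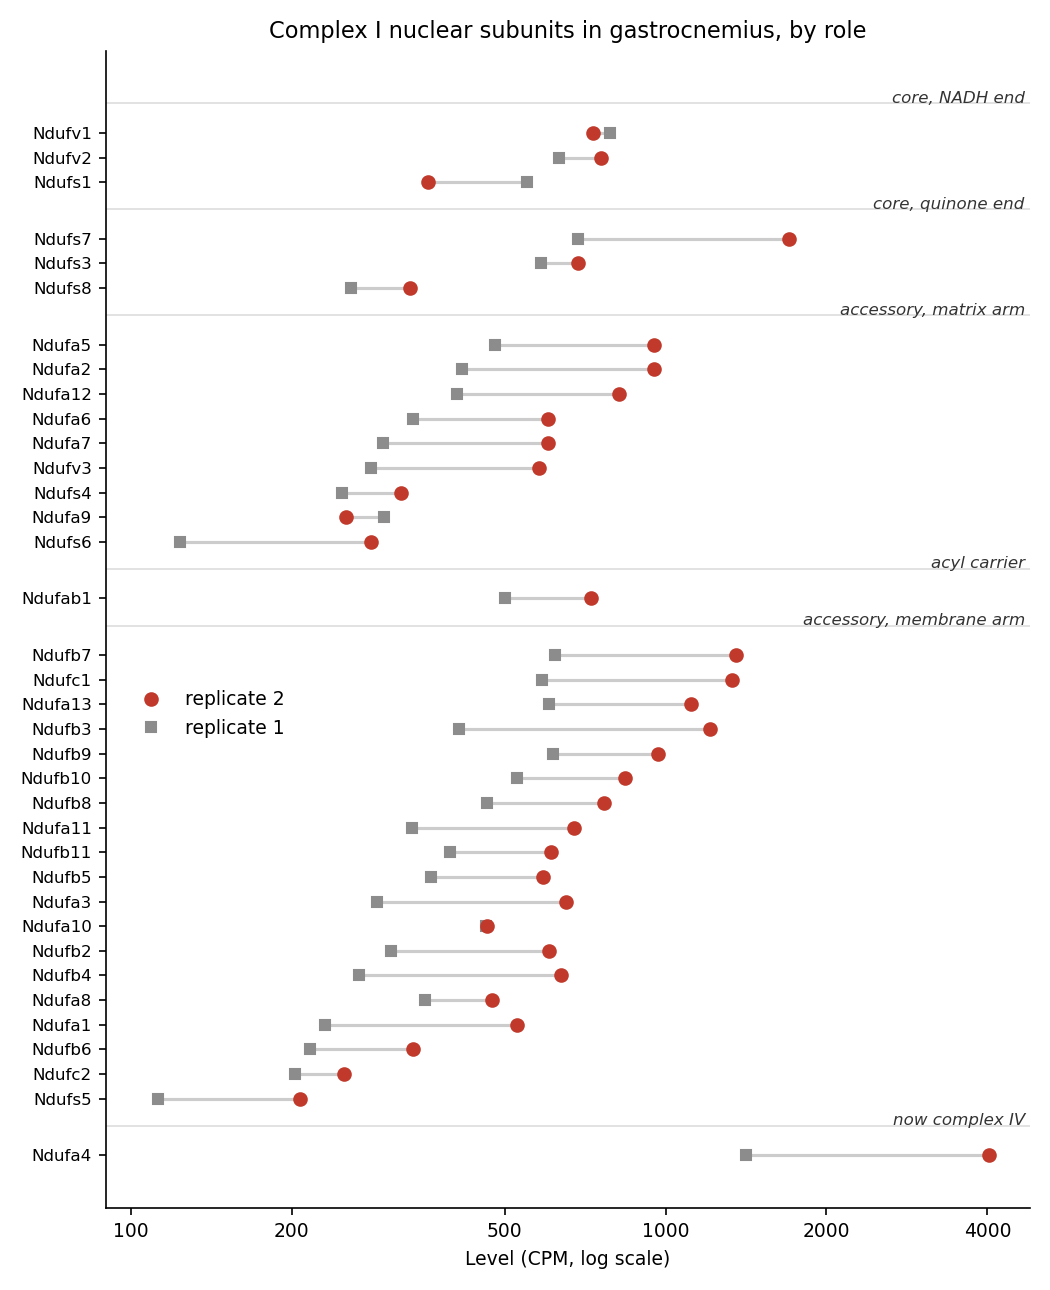
Level of 36 of the 37 genes in CPM (log scale), grouped by role, with replicate 2 as red circles and replicate 1 as grey squares joined by a line. Ndufa4 and Ndufs7 reach 4021 and 1702 CPM in replicate 2, and Ndufs5 is lowest in both libraries.

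The core subunits at the NADH end differed among themselves between the libraries. Ndufv1, which binds FMN and oxidises NADH, had 733 CPM in replicate 2 and 787 CPM in replicate 1 (760 ± 38, SD, n = 2). Ndufv2, a partner of Ndufv1 that carries an iron-sulfur cluster, had 757 CPM in replicate 2 and 631 CPM in replicate 1 (694 ± 89). Ndufs1, the largest subunit of the complex and the carrier of further clusters, had 359 CPM in replicate 2 and 552 CPM in replicate 1 (456 ± 136). Thus Ndufv1 lay level in both libraries, Ndufv2 was slightly higher in replicate 2 and Ndufs1 was lower there. By Fisher's exact test of a gene's reads against the rest of the library, two-sided, its p adjusted by Benjamini-Hochberg over the 7955 genes that had 10 reads or more, the adjusted p was 4.8e-07 for Ndufs1, 0.024 for Ndufv2 and 0.52 for Ndufv1. The fold of replicate 2 over replicate 1 was 0.651 for Ndufs1, 1.199 for Ndufv2 and 0.932 for Ndufv1. Against genes of like length, as described below, the lower call of Ndufs1 was lost (exact binomial test, adjusted p = 0.090).

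The core subunits at the quinone end spread more widely. Ndufs7, which carries the last cluster before ubiquinone, was the second most abundant member by its mean, with 1702 CPM in replicate 2 and 685 CPM in replicate 1 (1194 ± 719, SD, n = 2), a fold of 2.48. That place rests on partial reads, described below: on complete models, per 1000000 complete reads, its mean of 576 CPM ranked 16th. Ndufs3 had 685 CPM in replicate 2 and 586 CPM in replicate 1 (635 ± 70). Ndufs8, another iron-sulfur subunit, had 332 CPM in replicate 2 and 259 CPM in replicate 1 (295 ± 52). Ndufs7 and Ndufs8 were higher in replicate 2 (Fisher's exact test, adjusted p = 3.9e-80 and 0.049), while Ndufs3 did not pass (adjusted p = 0.083). The 7 core genes made up 17.3% of the members' reads in replicate 2 and 24.9% in replicate 1. In replicate 1, 5 of the 10 highest members were core genes, and in replicate 2 there was 1, Ndufs7.

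The accessory subunits of the matrix arm had medians of 602 CPM in replicate 2 and 298 CPM in replicate 1 over 9 genes. Ndufa5, a subunit of the quinone module, led them with 952 CPM in replicate 2 and 479 CPM in replicate 1 (715 ± 334, SD, n = 2). Ndufa2, with a thioredoxin-like fold, had 952 CPM in replicate 2 and 417 CPM in replicate 1 (684 ± 378). Ndufa12 followed with 819 CPM in replicate 2 and 407 CPM in replicate 1 (613 ± 292). All 3 were higher in replicate 2, by 1.99 to 2.28 times. Ndufa6, which belongs to the LYR proteins that bind the acyl carrier protein, had 604 CPM in replicate 2 and 337 CPM in replicate 1. Ndufa7 had 602 CPM in replicate 2 and 296 CPM in replicate 1, and Ndufv3, at the tip of the arm, had 580 CPM in replicate 2 and 281 CPM in replicate 1. The lower levels belonged to Ndufs4, Ndufa9 and Ndufs6, of which Ndufs4 and Ndufs6 sit in the NADH module. Mutations of NDUFS4 in humans are a known cause of Leigh syndrome. Ndufs4 had 319 CPM in replicate 2 and 248 CPM in replicate 1 (284 ± 50). Ndufa9, which binds a nicotinamide nucleotide and helps join the arms, had 252 CPM in replicate 2 and 298 CPM in replicate 1 (275 ± 32). Ndufs6, which holds a zinc ion, had 281 CPM in replicate 2 and 123 CPM in replicate 1 (202 ± 112). Of the 9 genes, 7 passed Fisher's exact test as higher in replicate 2, against 6.56% of all genes tested and 57.6% of those with transcripts up to 600 bases (adjusted p between 1.9e-38 for Ndufa2 and 2.2e-11 for Ndufs6), none passed as lower (0 also at an unadjusted p under 0.05), and Ndufs4 (adjusted p = 0.053) and Ndufa9 (adjusted p = 0.30) did not pass. Transcripts of these 9 genes ran from 532 to 1684 bases, with a median of 577, so this class does not match all of them. Ndufab1, the mitochondrial acyl carrier protein, which serves fatty acid synthesis as well as both arms of the complex, had 725 CPM in replicate 2 and 501 CPM in replicate 1 (613 ± 159) and also passed (Fisher's exact test, adjusted p = 2.5e-07).

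The 19 accessory subunits of the membrane arm carried the largest part of the members' reads, 47.5% in replicate 2 and 45.5% in replicate 1. Ndufb7 led them with 1356 CPM in replicate 2 and 622 CPM in replicate 1 (989 ± 519, SD, n = 2). It lies on the intermembrane space side, as do Ndufa8, Ndufb10 and Ndufs5, and these proteins share paired cysteines that form disulfides. Ndufb10 had 841 CPM in replicate 2 and 527 CPM in replicate 1, Ndufa8 had 473 CPM in replicate 2 and 354 CPM in replicate 1, and Ndufs5 had 208 CPM in replicate 2 and 112 CPM in replicate 1. Ndufs5 was the lowest of all members in both libraries. Ndufc1 had 1332 CPM in replicate 2 and 588 CPM in replicate 1 (960 ± 526), and Ndufc2 had 251 CPM in replicate 2 and 203 CPM in replicate 1 (227 ± 34). Ndufa13, also known as GRIM-19 for a proposed part in cell death, had 1116 CPM in replicate 2 and 606 CPM in replicate 1 (861 ± 361). Ndufb3 had 1214 CPM in replicate 2 and 410 CPM in replicate 1 (812 ± 568), the widest gap of this arm with all models counted. On complete models it had 339 CPM in replicate 2 and 190 CPM in replicate 1. Ndufb9, a second LYR protein of the complex, had 968 CPM in replicate 2 and 615 CPM in replicate 1 (791 ± 249).

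The other membrane-arm genes lay between 337 and 768 CPM in replicate 2 and between 217 and 463 CPM in replicate 1. They include Ndufb8, a widely used antibody target for complex I content, with 768 CPM in replicate 2 and 463 CPM in replicate 1. Ndufa11 had 674 CPM in replicate 2 and 335 CPM in replicate 1, and Ndufa3 had 651 CPM in replicate 2 and 289 CPM in replicate 1. The X-linked genes Ndufb11 and Ndufa1 had 612 CPM and 527 CPM in replicate 2, and 395 CPM and 231 CPM in replicate 1. The remaining 35 members are autosomal. Ndufb4 had 637 CPM in replicate 2 and 267 CPM in replicate 1, and Ndufb2 had 605 CPM in replicate 2 and 307 CPM in replicate 1. Ndufb5 had 591 CPM in replicate 2 and 364 CPM in replicate 1, and Ndufb6, the lowest of these, had 337 CPM in replicate 2 and 217 CPM in replicate 1. All of these were higher in replicate 2. Ndufa10, which has the fold of a nucleoside kinase, was the exception, with 463 CPM in replicate 2 and 461 CPM in replicate 1. In the membrane arm 17 of 19 genes passed Fisher's exact test as higher in replicate 2, against 6.56% of all genes tested and 30.2% of those with transcripts of 600 to 1000 bases. Transcripts of these 19 genes ran from 419 to 2564 bases, with a median of 704, so this class does not match all of them. None passed as lower (0 also at an unadjusted p under 0.05), and Ndufc2 (adjusted p = 0.19) and Ndufa10 (adjusted p = 1.0) did not pass.

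Ndufa4 was the most abundant of the 37 genes in both libraries, with 4021 CPM in replicate 2 and 1415 CPM in replicate 1 (2718 ± 1842, SD, n = 2), a fold of 2.84. It alone held 14.0% of the members' reads in replicate 2 and 8.73% in replicate 1. The 12 other complex IV genes listed ranged up to 5622 CPM in replicate 2 and 3085 CPM in replicate 1, both for Cox4i1, and down to 267 CPM in replicate 2 and 142 CPM in replicate 1 for Cox8a.

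In all, 31 of 37 members differed between the libraries by Fisher's exact test, against 13.5% of all genes tested. Of these, 29 were higher in replicate 2, against 6.56% of all genes, and 2, Ndufs1 among them, were lower, against 6.89%. Shares of all genes in the gene test include genes with as few as 10 reads, where it finds less than in the well-read members. With a minimum of 50 reads, 33 members differed, against 1085 of 3271 genes. At least 2-fold differences were found for 14 members. The share of all genes with such a difference was not counted. Among all 250 genes with transcripts up to 600 bases the median log2 ratio was 1.02, where 1 is 2-fold, so the count says little about the members. The median log2 ratio of replicate 2 over replicate 1 was 0.84 for the members and -0.24 for all genes. Scaling by TMM or DESeq2 size factors, which brings the median gene near 0, called 32 members higher and 1, Ndufs1, lower. Under these scalings the ratio of Ndufv1, which was not called by the library totals, turned from -0.10 to 0.13 and 0.16 on the log2 scale.

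Genes with short transcripts had higher ratios throughout the libraries, and most of the members have short transcripts. Transcript length, taken as the read-weighted mean over a gene's complete models, was 763 bases for the median member. For genes with under 5% complete reads, among the members Ndufa13 alone, it was taken over all models. Of genes up to 600 bases, 57.6% passed as higher in replicate 2, as did all 10 members of that class, and the median log2 ratio was 1.03 for the members and 1.02 for all 250 genes. From 600 to 1000 bases the medians were 0.70 for 14 members and 0.53 for all 567 genes, and from 1000 to 1500 bases they were 0.62 for 6 members and 0.07 for all 956 genes. From 1500 to 2500 bases they were 0.01 for 5 members and -0.27 for all 2197 genes. Above 2500 bases, where the median of all 3985 genes was -0.42, Ndufb2 had 0.98 and Ndufs1 had -0.62. Passing as higher were 13 of 14 members from 600 to 1000 bases, against 30.2% of all genes. From 1000 to 1500 bases 4 of 6 passed, against 8.26%, and no member was lower in either class. The class from 1500 to 2500 bases and that above each held 1 higher member, against 2.96% and 1.58%. Each also held 1 lower member, against 8.97% and 7.65%. The core gene Ndufs1, with 2641 bases, belongs to the long end. Spearman's rho of length and ratio was -0.59 across the 37 members and -0.37 across all genes tested.

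**Figure D2:**
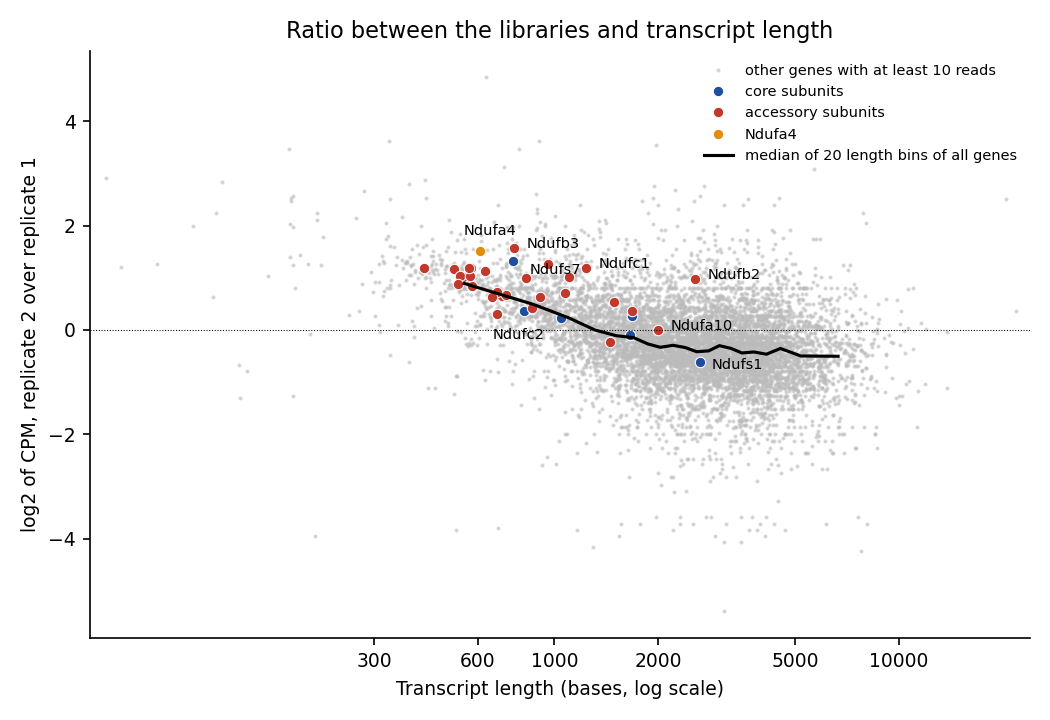
Log2 ratio of CPM in replicate 2 over replicate 1 against transcript length in bases (log scale) for the core subunits (blue), accessory subunits (red), Ndufa4 (orange) and all other genes with at least 10 reads (grey). The black line joins the medians of 20 length bins of all genes, and short members up to 600 bases lie around a log2 ratio of 1.03.

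When each gene's expected share was taken from genes of like length, in 20 bins, 14 members were higher in replicate 2, against 4.1% of all genes, and 2 were lower, against 2.79% (exact binomial test, Benjamini-Hochberg adjusted). The 14 were Ndufa2, Ndufa4, Ndufa5, Ndufa10, Ndufa12, Ndufab1, Ndufb2, Ndufb3, Ndufb4, Ndufb5, Ndufc1, Ndufs4, Ndufs7 and Ndufv2. The 2 were Ndufb9 and Ndufc2. The largest excess over genes of like length belonged to Ndufb2, at 1.40 on the log2 scale over the bin's median, then Ndufc1 at 1.18 and Ndufb3 at 1.08. These ratios count partial reads, described below, while the lengths are those of complete models, save for Ndufa13. On complete models the fold of replicate 2 over replicate 1 fell from 2.96 to 1.79 for Ndufb3. It fell from 2.48 to 1.57 for Ndufs7 and from 2.84 to 1.80 for Ndufa4. The length of Ndufb2 rests on an annotated last exon of 3991 bases in Ndufb2-205, and the files do not give the lengths of single reads. The unannotated complete models of Ndufb2 all end at chr6:39599471, as does Ndufb2-202, which has 455 bases. With that length Ndufb2, at a log2 ratio of 0.98, would fall in the class up to 600 bases, where the median of all genes was 1.02. The excess of Ndufb2 therefore depends on the length assigned to it.

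Most of the members' reads fell on complete models, those whose whole chain of exon junctions is annotated or is a full unannotated combination. Other reads fell on partial models, which match only a stretch of an annotated transcript. The median member had 3.03% partial reads in replicate 2 and 1.84% in replicate 1, against medians of 3.72% in replicate 2 and 3.64% in replicate 1 over 1248 genes with at least 50 reads in each library. Ndufa13, Ndufb3, Ndufs7 and Ndufa4 stood apart. The highest share among the other 33 members was 20.1% in replicate 2 and 14.9% in replicate 1, both in Ndufa5.

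**Figure D3:**
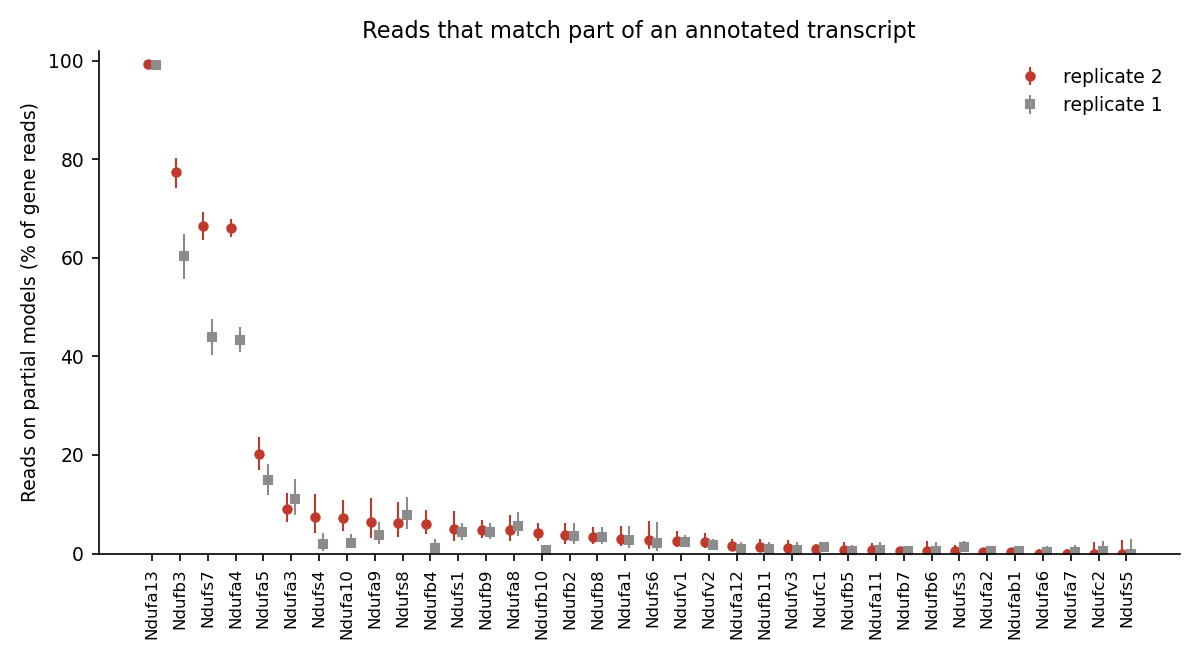
Share of reads on partial models for 36 of the 37 genes, in percent, with exact Clopper-Pearson 95% intervals, in replicate 2 (red circles) and replicate 1 (grey squares). Ndufa13 is near 100% in both libraries, Ndufb3, Ndufs7 and Ndufa4 lie between 43.4% and 77.4%, and the other genes reach at most 20.1%.

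In Ndufa4, Ndufs7 and Ndufb3 the partial reads gathered on 1 model each, made of the last exons. The exon at the 5′ end of each is shown because it marks where these models start inside the coding sequence; all 3 are in lower case and read from the GENCODE M21 transcripts in transcript direction.
Ndufa4 exon 3 (mm10 chr6:11905202-11905262, minus strand, 61 coding bases): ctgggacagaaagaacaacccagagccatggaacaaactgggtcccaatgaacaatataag
Ndufs7 exon 7 (mm10 chr10:80255924-80256012, plus strand, 89 coding bases): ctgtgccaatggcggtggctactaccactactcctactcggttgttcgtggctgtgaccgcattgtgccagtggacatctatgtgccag
Ndufb3 exon 3, coding part (mm10 chr1:58595649-58595802, plus strand, 154 bases): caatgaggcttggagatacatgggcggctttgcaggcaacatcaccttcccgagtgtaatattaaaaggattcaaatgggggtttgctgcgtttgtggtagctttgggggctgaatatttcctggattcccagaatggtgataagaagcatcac

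The Ndufa4 model had 2 of 4 exons and 361 of 610 bases, and held 115 of 246 coding bases without the start codon. It took 1647 of 2518 reads in replicate 2 (65.4%, 95% interval 63.5 to 67.3) and 657 of 1549 reads in replicate 1 (42.4%, 39.9 to 44.9). The Ndufs7 model had 2 of 8 exons and 184 of 672 coding bases. It took 691 of 1066 reads in replicate 2 (64.8%, 61.9 to 67.7) and 314 of 750 reads in replicate 1 (41.9%, 38.3 to 45.5). The Ndufb3 model was the last exon alone, with 154 of 312 coding bases. It took 587 of 760 reads in replicate 2 (77.2%, 74.1 to 80.2) and 270 of 449 reads in replicate 1 (60.1%, 55.4 to 64.7). In each of the 3 genes the intervals of the libraries were apart. The last exon of Ndufa5 alone, with 99 of 348 coding bases, took 18.1% of its reads in replicate 2 and 10.9% in replicate 1. Of all partial reads of the members, 99.1% in replicate 2 and 99.5% in replicate 1 sat on models whose 5′ end is an annotated exon edge, so the files do not show where inside an exon a read began.

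**Figure D4:**
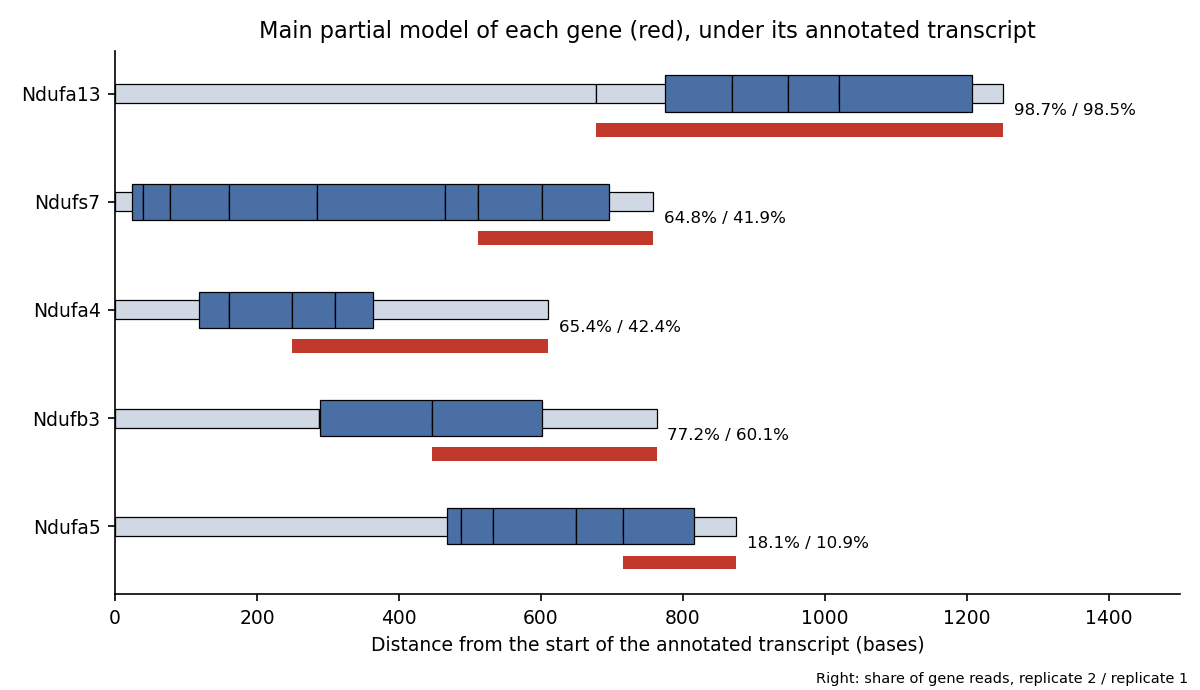
Main partial model (red bar) under the annotated transcript of each gene, drawn to scale in bases from the transcript start, with coding exons as tall blue boxes and noncoding stretches as low grey boxes. The red bars of Ndufs7, Ndufa4, Ndufb3 and Ndufa5 start inside the coding sequence, while that of Ndufa13 spans all 432 coding bases; the percentages are shares of the gene's reads in replicate 2 and replicate 1.

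The share of partial reads was compared over all genes with at least 50 reads in each library, a test chosen after the data were seen. It was higher in replicate 2 for 7 of 37 members, against 10.8% of all genes (Fisher's exact test, Benjamini-Hochberg adjusted). No member was lower, also at an unadjusted p under 0.05. Only 26 of all 1248 genes were called lower, so this count of none says little about the members. The 7 were Ndufa4 (66.1% in replicate 2 and 43.4% in replicate 1, adjusted p = 1.2e-43), Ndufs7 (66.5% in replicate 2 and 43.9% in replicate 1, adjusted p = 5.2e-20), Ndufb3 (77.4% in replicate 2 and 60.4% in replicate 1, adjusted p = 1.4e-08), Ndufb10, Ndufb4, Ndufa10 and Ndufs4. In the last 4 genes the shares stayed low, between 4.17% and 7.50% in replicate 2 and between 0.693% and 2.18% in replicate 1. On complete models alone the fold of replicate 2 over replicate 1 was 1.80 for Ndufa4, 1.57 for Ndufs7 and 1.79 for Ndufb3, against 2.84, 2.48 and 2.96 with all models. On complete models 29 members were higher in replicate 2, against 5.73% of all genes, and 28 of them were also higher with all models. Ndufs3 was gained (Fisher's exact test, adjusted p = 0.0061) and Ndufa13, with 2 complete reads in replicate 2 and 6 in replicate 1, was not tested.

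Ndufa13 was read almost wholly as 1 shorter model. Partial models took 694 of 699 reads in replicate 2 and 657 of 663 reads in replicate 1, and 690 of these reads in replicate 2 and 653 in replicate 1 were on a single 4-exon model of 573 bases (mm10 chr8:69894180-69901732, minus strand). It lacks the first exon of Ndufa13-201, which is annotated at chr8:69901881-69902558 with 678 bases, none of them coding. All 432 coding bases lie in this model, so 98.7% of the gene's reads in replicate 2 and 98.5% in replicate 1 were assigned to models that span the whole coding sequence. The gene lies inside the span of Yjefn3 on the same strand over 8379 bases, and Yjefn3 had 15 reads in replicate 2 and 20 reads in replicate 1.

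For 25 of 37 members, more than 90% of reads in each library were assigned to models that span a complete annotated coding sequence of the gene. The files give models and not read ends, so the share is one of assignment. The median was 94.3% in replicate 2 and 95.9% in replicate 1. The lowest shares were those of Ndufb3 (22.8% in replicate 2 and 39.9% in replicate 1), Ndufs7 (32.1% in replicate 2 and 53.5% in replicate 1) and Ndufa4 (34.0% in replicate 2 and 56.8% in replicate 1). Summed over all 37 genes, the share was 79.2% in replicate 2 and 89.0% in replicate 1.

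Within complete reads, most members had 1 dominant model. The leading model was annotated in 36 of 37 genes, Ndufa13 with its few complete reads being the exception, and it held over 95% of complete reads on average in 25 genes. The median leading share was 97.2% for the members and 95.5% for 1044 genes with at least 50 complete reads in each library. The leading share differed between the libraries in 1 of 36 members tested, against 1.44% of all genes (Fisher's exact test, Benjamini-Hochberg adjusted). That gene was Ndufb10, where Ndufb10-201 held 93.9% of 505 complete reads in replicate 2 and 98.1% of 573 in replicate 1 (adjusted p = 0.029), and a 2-exon annotated model of 430 bases, Ndufb10-204, held 4.16% in replicate 2 and 0.87% in replicate 1. The call was lost with a minimum of 20 complete reads (Fisher's exact test, adjusted p = 0.064), and 1 in 36 is near the share of all genes.

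**Figure D5:**
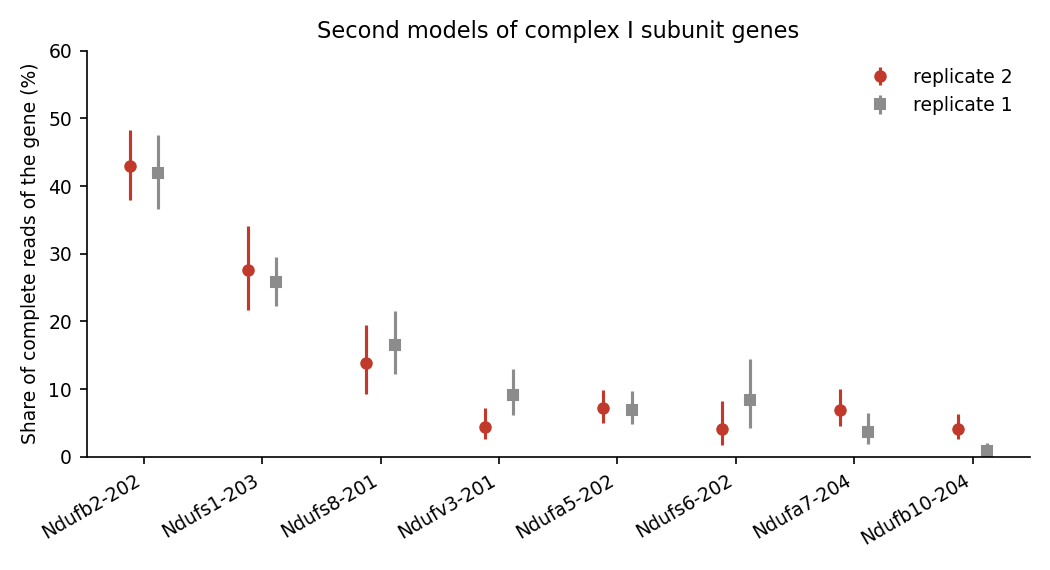
Share of complete reads held by a second annotated model in 8 genes, in percent with exact Clopper-Pearson 95% intervals, in replicate 2 (red circles) and replicate 1 (grey squares). Ndufb2-202 holds 43.0% in replicate 2 and 42.0% in replicate 1, and the intervals of the libraries overlap in every gene drawn except Ndufb10.

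Ndufb2 and Ndufs1 were the genes divided most evenly between models, and in both the division leaves the coding sequence as it is. Ndufb2-205 held 53.4% of 365 complete reads in replicate 2 (95% interval 48.2 to 58.6) and 54.3% of 324 in replicate 1 (48.7 to 59.8), and Ndufb2-202 held 43.0% in replicate 2 and 42.0% in replicate 1. The exons numbered 3, which begin at chr6:39598266 on the plus strand, end at 39598361 in Ndufb2-205 and at 39598365 in Ndufb2-202, both beyond the coding part, and each transcript has the same 315 coding bases. Ndufs1-201 held 49.1% of 214 complete reads in replicate 2 (42.2 to 56.0) and 56.6% of 578 in replicate 1 (52.4 to 60.7), and Ndufs1-203 held 27.6% in replicate 2 and 25.8% in replicate 1. Their splice sites differ in the donor of a noncoding first exon, which ends at chr1:63176586 in Ndufs1-201 and at chr1:63176428 in Ndufs1-203 on the minus strand. A noncoding exon of 104 bases (chr1:63172154-63172257), annotated in Ndufs1-212, was present in 16.4% of complete Ndufs1 reads in replicate 2 (11.7 to 22.0) and 13.3% in replicate 1 (10.7 to 16.4), on 6 models. Ndufs8 was similar, with Ndufs8-205 at 83.6% in replicate 2 and 80.5% in replicate 1. Ndufs8-201, which differs from it in a noncoding first exon, stood at 13.8% in replicate 2 and 16.5% in replicate 1.

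A second annotated coding sequence was read in Ndufa3, Ndufa4, Ndufa5, Ndufa6, Ndufa11, Ndufb5, Ndufb6, Ndufb8, Ndufv1, Ndufv2 and Ndufv3. In Ndufa3 and Ndufb6 it was read in replicate 2 alone. In each of these genes the main form held at least 90.1% of reads assigned to models with a complete coding sequence. Ndufv1-207 held 11 reads in replicate 2 and 14 reads in replicate 1. Ndufv2-201 held 5 reads in replicate 2 and 19 reads in replicate 1. Ndufv3 is known in a short and a long form that differ by 1 exon, and the muscle reads were mostly of the short form. The junctions are shown because they tell the forms apart; lower case is the end of the upstream exon and capitals are the start of the downstream exon (mm10 chr17, plus strand, from the GENCODE M21 transcripts).
Ndufv3-202, exon 2 to exon 3: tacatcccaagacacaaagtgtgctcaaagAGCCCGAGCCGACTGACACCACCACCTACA
Ndufv3-201, exon 2 to exon 3: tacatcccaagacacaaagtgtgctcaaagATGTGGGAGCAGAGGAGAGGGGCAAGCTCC
Ndufv3-201, exon 3 to exon 4: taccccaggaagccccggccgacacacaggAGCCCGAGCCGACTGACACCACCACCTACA

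The extra exon of Ndufv3-201 (chr17:31527310-31528401) has 1092 bases, all coding and 364 codons long, so the coding sequence is 1404 bases in the long form and 312 in the short one. Among reads assigned to models with a complete coding sequence, the short form held 342 of 359 in replicate 2 (95.3%) and 275 of 303 in replicate 1 (90.8%). The long form held 16 reads in replicate 2 (4.46%, 95% interval 2.57 to 7.14) and 28 reads in replicate 1 (9.24%). For the leading model of Ndufv3, which is the short form, Fisher's exact test gave an adjusted p of 0.34 between the libraries.

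Ndufa5 had a minor form without exon 3, shown here whole and in lower case (mm10 chr6:24522659-24522775, minus strand, 117 bases or 39 codons, from the GENCODE M21 transcripts).
Ndufa5 exon 3: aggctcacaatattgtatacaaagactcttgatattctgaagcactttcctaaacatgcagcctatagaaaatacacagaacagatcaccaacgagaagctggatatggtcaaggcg

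Ndufa5-202, which skips this exon and keeps the reading frame, held 7.14% of complete reads in replicate 2 (95% interval 5.0 to 9.84) and 6.95% in replicate 1 (4.77 to 9.72), and its coding sequence is 231 bases against 348 in Ndufa5-201. Ndufa6 had 2 shorter annotated coding sequences, of 123 and 216 bases, which together with the main form of 393 bases were read in both libraries; the main form held 90.1% in replicate 2 and 93.7% in replicate 1. In Ndufa11 a form of 228 coding bases held 4.34% in replicate 2 and 2.94% in replicate 1. In Ndufs6 a model annotated as a target of nonsense-mediated decay, Ndufs6-202, held 7 of 171 complete reads in replicate 2 (4.09%) and 11 of 132 in replicate 1 (8.33%). A 2-exon model of Ndufa7, Ndufa7-204, held 6.93% in replicate 2 and 3.72% in replicate 1. These minor forms rest on few reads, and the intervals of the libraries overlapped for Ndufa5-202, Ndufs6-202 and Ndufa7-204.

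For 13 members the annotation holds similar processed pseudogenes, 18 in all, aligned over at least 200 bases with 90.3% to 100% identity. The copy of Ndufs5 was the one that matters for levels. BC002163, a processed pseudogene with 99.4% identity over 319 bases, had 125 reads in replicate 2 and 90 reads in replicate 1, against 130 reads in replicate 2 and 123 reads in replicate 1 on Ndufs5 itself. With both counted, the level would be 407 CPM in replicate 2 and 195 CPM in replicate 1 (301 ± 150, SD, n = 2), so the place of Ndufs5 as the lowest member is uncertain. The other 17 copies had at most 4 reads in either library.

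Genes of related function were compared in the same way. Of 16 assembly factors with a read, which build the complex but are not part of it, 2 of 15 tested were higher in replicate 2 and none lower (Fisher's exact test; 6.56% of all genes were higher and 6.89% lower). They summed to 917 CPM in replicate 2 and 676 CPM in replicate 1. The highest was Tmem70, with 220 CPM in replicate 2 and 162 CPM in replicate 1. Of the 7 complex I genes of mitochondrial DNA, 5 had a read, and mt-Nd4l and mt-Nd6 had none. The 5 summed to 311 CPM in each library, led by mt-Nd1 with 128 CPM in replicate 2 and 119 CPM in replicate 1. None of 4 tested passed Fisher's exact test, also at an unadjusted p under 0.05. How well these libraries capture mitochondrial RNAs was not tested. Of the other respiratory complexes, 1 of 4 tested genes of complex II was higher in replicate 2 and 1 lower. In complex III 5 of 9 genes were higher and 2 lower, in complex IV 12 of 12 were higher, and in ATP synthase 11 of 15 were higher and 1 lower, against the same 6.56% and 6.89% of all genes. The median log2 ratio was -0.01 in complex II, 0.79 in complex III, 0.96 in complex IV and 0.65 in ATP synthase, with median lengths of 2061, 1363, 627 and 731 bases. Ndufb1-ps, which is not annotated as protein-coding and so is no member, had 623 CPM in replicate 2 and 214 CPM in replicate 1, and Ndufa4l2, a relative of Ndufa4, had 14.4 CPM in replicate 2 and 32.0 CPM in replicate 1.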

How the data were processed

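For each library the authors deposited a table of whole-number read counts, 1 row a transcript model, and the annotation of these models; per the file headers each model has a gene, length, exon number and class; the assembly is mm10 per the labels. Classes were grouped as complete (annotated or unannotated full splice chains), partial and unspliced. ERCC contigs were set aside, models were summed per gene, and counts were divided by the remaining reads (CPM). Shares carry exact Clopper-Pearson 95% intervals, for counting error only since no molecular identifiers are given. Genes and leading models were compared by Fisher's exact test with Benjamini-Hochberg adjustment at 0.05. The tests were tried on simulated counts with sampling noise only, so further spread between libraries was not part of that check. Near copies were found with BLAST 2.17.0. Tools were Python 3.11.15, pandas 2.3.3, scipy 1.17.1, statsmodels 0.14.6, R 4.3.3, edgeR 4.0.16 (TMM factors) and DESeq2 1.42.0 (size factors). Coding sequences are those of GENCODE M21. Members and lists were chosen with earlier results of these data known. Members are named singly, save 1 that is not reported here though counts and sums include it, with SD where it is among the 10 highest or 5 lowest by mean, is a core gene or otherwise stands out. The aligner and any read correction: not given in the sources used here.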

Additional observations from a re-analysis of the deposited data

How the results depend on the processing

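No paired analysis was possible because the study has 1 group. The number of members that differ between the libraries, 31, stayed within 30 to 33 with no read minimum, a minimum of 50 reads, TMM or DESeq2 scaling, complete models alone, or replicate 1 thinned to the reads of replicate 2. It was 16 when the expected share came from the summed reads of genes of like length, and 16 again (15 higher, 1 lower) with the median ratio of those genes, an alternative chosen after seeing the data; the cause was not tested beyond length. The call on the leading model of Ndufb10 was lost with a minimum of 20 complete reads, which left 0 members by Fisher's exact test (4 at an unadjusted p under 0.05; adjusted p = 0.064 for Ndufb10) among more genes tested, 2330 in place of 1044. The members' share of all reads was 2.87% without replicate 1, 1.62% without replicate 2 and 1.97% on average without Ndufa4. Their average share was 2.54% of the reads on annotated models and 2.18% of the reads on complete models. The number with more partial reads in replicate 2 was 6 with a minimum of 20 reads, in place of 7. Transcript lengths are those of models, not of reads, which limits the comparison by length, and with 2 libraries no spread between animals can be had.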
